A study of Mus musculus with 6 samples.

Results

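Robo receptors and the cytoplasmic proteins that carry the Slit-Robo signal were followed in RNA sequencing of sorted mouse bone marrow cells. The cells are labelled haematopoietic stem progenitor cells, a population that gives rise to blood. The members were chosen by gene symbol, as 10 of the 18491 genes in the deposited table, and all 10 were found and passed the filter on low counts. They are the receptor genes Robo3 and Robo4, the adaptor genes Nck1 and Nck2, the kinase gene Abl1, the exchange factor gene Sos1, the GTPase-activating protein genes Srgap2 and Myo9b, the actin regulator gene Vasp and the deubiquitinase gene Usp33. The comparison set 3 libraries labelled knockout (KO-1 to KO-3) against 3 labelled WT (WT-1 to WT-3). Both groups came from bone marrow cells sorted by flow cytometry 8 months after poly(I:C), an RNA mimic that induces interferon. The series' design text gives 3 doses of poly(I:C) and a Robo1 knockout made with Mx1-cre, a recombinase under an interferon-responsive promoter that acts in blood cells and in other tissues. Other label fields speak of shRNA knockdown and a scramble control instead, with ROBO1 for KO-1, ROBO2 for KO-2 and ROBO3 for KO-3 in one of them. No library is described as a separate animal, so the p-values reflect only how far these libraries vary, perhaps for technical reasons. As Robo1 and Robo2 are genes not analysed here, no check of the deletion was made.

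Slits are secreted proteins and Robos are their transmembrane receptors, best known for steering axons away from the midline of the nervous system. A Robo receptor has no enzyme activity of its own, and its cytoplasmic tail recruits adaptors, kinases and regulators of small GTPases such as Rac and Cdc42, which in turn set actin assembly. In mouse bone marrow Robo4 is known from stem cells and endothelium, where it takes part in the lodging of transplanted stem cells.

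Total counts were 42235077 to 57058267 in the knockout libraries and 44578916 to 58106099 in the wild-type libraries. The groups differed in how reads were spread over genes. The 100 most abundant genes took 59.7 to 60.8% of counts in knockout libraries and 42.3 to 43.3% in wild-type libraries. A gene's level therefore depends on the scaling. TMM scaling compares libraries through the bulk of genes after trimming the extremes, and the median log2 fold change of the 15474 genes tested was then -0.09. Scaled by totals alone, that median was -1.22, a shift of -1.13. Of 12 stem and progenitor markers, edgeR with TMM called 3 higher (Mpo, Ly6a and Cd48) and 2 lower (Hlf, log2 -0.83, and Meis1, log2 -0.52). Cd34 stood at 102 ± 0.483 CPM (counts scaled to a common TMM-adjusted library size) in knockout and 106 ± 4.54 CPM in wild type. Mpo stood at 149596 ± 4269 and 49745 ± 2056 CPM, and Kit at 16.9 ± 0.276 and 13.7 ± 1.78 CPM (mean ± SD, n = 3 each). Beside them the 6 eosinophil and basophil markers, of which edgeR with TMM called 5 higher, summed to 44740 to 50402 CPM in knockout and 7318 to 8623 CPM in wild type, and the 6 megakaryocyte markers (1 higher, 3 lower) to 172 to 196 and 164 to 175 CPM. Sums with TMM were also higher in knockout for B lineage (40787 to 42754 against 12688 to 13672 CPM) and neutrophil markers (8351 to 8667 against 2337 to 2713). So were erythroid (3034 to 3621 against 941 to 1226), monocyte (3768 to 4143 against 1073 to 1177) and T and NK sums (6327 to 6741 against 3370 to 3434). In that order, calls higher and lower were 2 and 3, 4 and 0, 3 and 1, 2 and 1, and 1 and 1. In CPM of total counts the T and NK sum was lower in knockout (4263 to 4584 against 4932 to 5111). The megakaryocyte sum was lower too (117 to 134 against 249 to 252). The eosinophil and basophil, B lineage, neutrophil, erythroid and monocyte sums stayed higher. Of 8 stromal markers only 3 were analysed here and 1, Pdgfrb, was tested and not called. They summed to 2.68 to 5.84 CPM in knockout and 3.70 to 4.31 CPM in wild type with TMM. Most of that was Pdgfrb, at 2.68 to 5.12 and 3.60 to 4.27 CPM. In CPM of total counts the stromal sum was lower in knockout (1.82 to 3.86 against 5.61 to 6.37). The part of all these cell types in the values below was not tested.

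Under TMM scaling the 10 genes together kept their place in the transcriptome, and under total counts they held a smaller part of the reads in knockout. Their summed counts were 46.3, 41.9 and 43.0 CPM in knockout libraries and 44.1, 44.9 and 41.0 CPM in wild-type libraries with TMM scaling. The 2 groups overlapped on this scale. In CPM of total counts the same reads came to 30.6, 28.7 and 29.3 in knockout libraries and 63.3, 68.2 and 61.1 in wild-type libraries, with every knockout library below every wild-type library. Gene by gene on that scale, 7 of the 10 lay wholly below wild type, as did 76.1% of all genes, and 1 wholly above, as did 4.85%.

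In edgeR's quasi-likelihood test with TMM scaling, 1 of the 10 genes, Nck2, was called higher in knockout (Benjamini-Hochberg adjusted p under 0.05 over all genes), against 17.2% of all genes tested. None was called lower, against 14.4% of all genes (2229, which became 1356 without WT-2 and 1419 without WT-3), and DESeq2 also called 0 lower. At an unadjusted p under 0.05 in edgeR with TMM, 1 member was higher and 2 were lower. With total counts 7 of the 10 were called lower, against 70.7% of all genes, and 0 higher, against 4.23%. At an unadjusted p under 0.05 total counts also gave 0 higher, and DESeq2 was not run on that scaling. For neither scaling was the share of all genes at that unadjusted threshold computed. It cannot be below the share called, so these unadjusted counts show nothing particular to the members. The log2 fold change of 5 genes, Robo3, Robo4, Nck1, Usp33 and Myo9b, was above 0 with TMM and below 0 with total counts. In the authors' deposited DESeq2 table, Nck2 alone of the 10 has an adjusted p under 0.05 in the higher direction, where 14.3% of all rows do, and 0 in the lower direction, where 11% do.

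**Figure D1:**
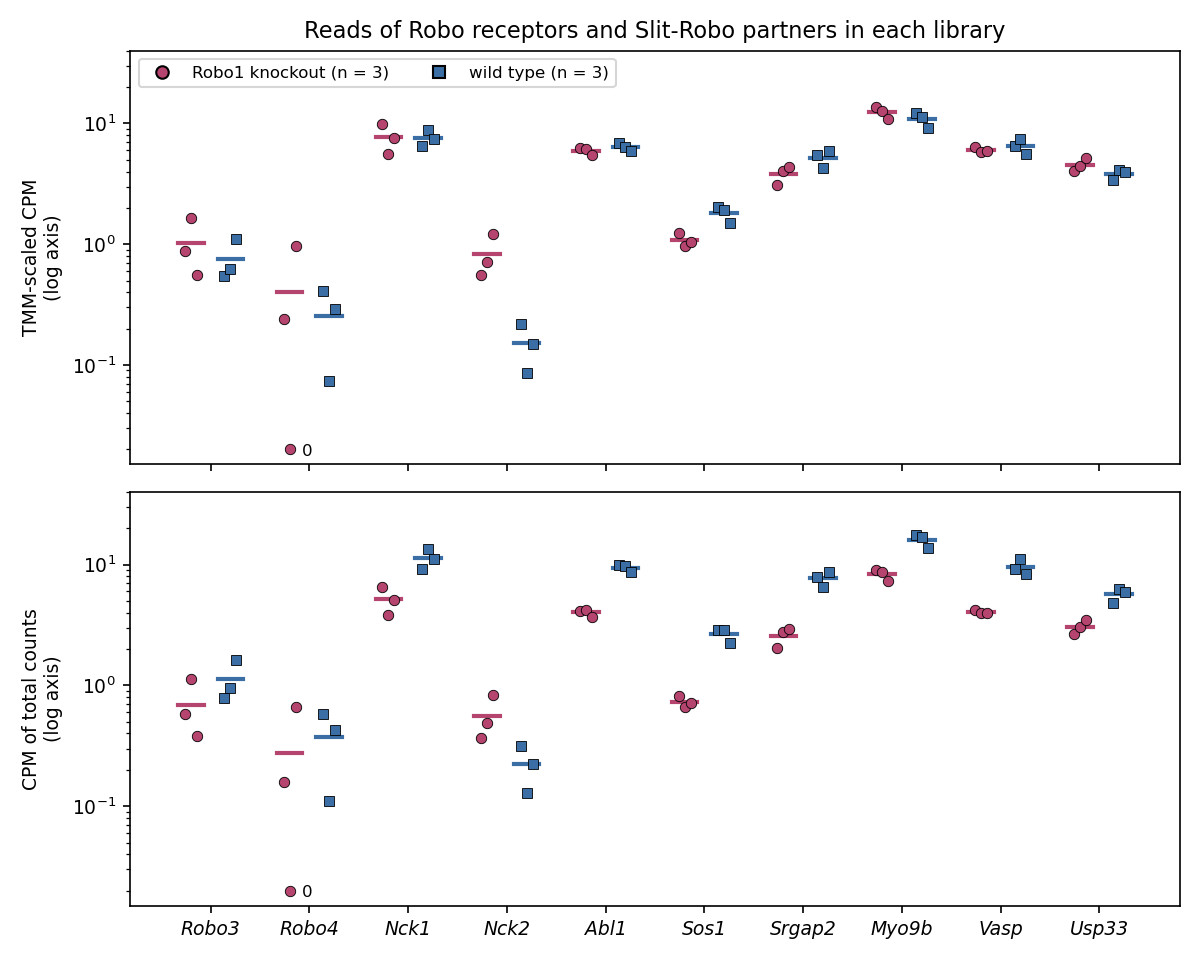
Level of each gene in the 6 libraries, as TMM-scaled CPM (top) and as CPM of total counts (bottom), on log axes. Points are libraries, bars are group means (knockout left, wild type right, n = 3 each), and the Robo4 library with 0 counts is drawn at the bottom of each panel and marked 0. Nck2 lies higher and Sos1 lower in knockout in both panels, and 7 genes lie below wild type in the bottom panel.

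**Figure D2:**
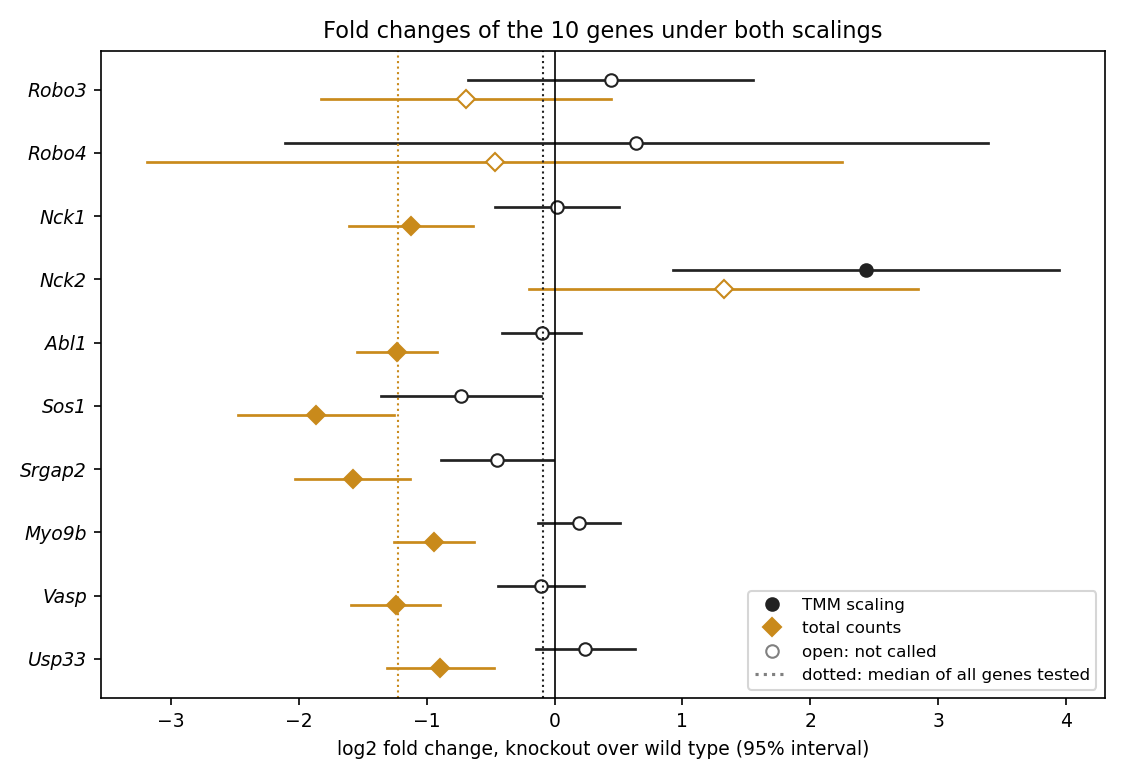
Log2 fold change of each gene, knockout over wild type, with its 95% interval from edgeR under TMM scaling (circles) and total counts (diamonds). Filled marks are calls, and the dotted lines are the medians of all genes tested, -0.09 and -1.22. The intervals of Robo4 and Nck2 are the widest of the 10 under both scalings.

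The receptors passed no test under either scaling. Robo3 (chromosome 9, 37415669 to 37433246, minus strand, GRCm38) encodes a divergent receptor that in mouse governs midline crossing of commissural axons. It had 33, 58 and 16 counts in knockout libraries and 35, 51 and 95 counts in wild-type libraries. In TMM-scaled CPM these were 0.876, 1.64 and 0.557 in knockout, and 0.547, 0.623 and 1.10 in wild type. KO-2 and WT-3 were the high libraries and the groups overlapped. The log2 fold change was 0.44 (SE 0.49, 95% interval -0.68 to 1.56, edgeR adjusted p = 0.553), and -0.69 (SE 0.50, adjusted p = 0.233) with total counts. Without knockout replicate 2 the TMM value was -0.07, so its sign rested on that library.

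Robo4 (chromosome 9, 37401897 to 37415115, plus strand) encodes the receptor known from endothelium. It had 9, 0 and 28 counts in knockout libraries and 26, 6 and 25 counts in wild-type libraries. KO-3 carried most of the knockout reads, and the 0 counts of KO-2 allow a level of up to 0.0848 CPM, taking 3 counts as the limit. The log2 fold change was 0.64 (SE 1.22, 95% interval -2.11 to 3.39, edgeR adjusted p = 0.74), and -1.07 without knockout replicate 3. With total counts it was -0.47 (SE 1.21, adjusted p = 0.73). Neither receptor differed by more than the spread between libraries in these fits. Robo3 and Robo4 lie tail to tail with 553 bases between their annotated ends and share no annotated base.

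Of 12 endothelial marker genes 9 were analysed here. Their summed level with TMM was 91.3 to 101 CPM in knockout and 105 to 110 CPM in wild type. In CPM of total counts it was 62.1 to 68.6 in knockout and 158 to 164 in wild type. Of the 8 tested, 1, Eng, was called lower and 0 higher in edgeR with TMM. Most of the sum was Egfl7, at 59.2 to 63.6 CPM in knockout and 59.5 to 68.3 CPM in wild type. Plvap, too low to be tested, had 0 counts in every knockout library and 8, 28 and 0 counts in wild-type libraries. Kdr stood at 0 in KO-2 and WT-3. The part of endothelial cells in the Robo4 values was not tested. Of 6 neuronal markers only Tubb3 was analysed here, at 0.139 to 0.706 CPM in knockout and 0.0366 to 0.219 CPM in wild type.

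Of the 2 Nck adaptors, Nck2 was called higher with TMM scaling and Nck1 was not called. Nck1 and Nck2 are near relatives that link phosphorylated receptors to actin regulators, and in Drosophila their counterpart Dock binds Robo. Nck2 (chromosome 1, 43444579 to 43570515, plus strand) had 21, 25 and 35 counts in knockout libraries and 14, 7 and 13 counts in wild-type libraries. In TMM-scaled CPM it stood at 0.558, 0.706 and 1.22 in knockout, and at 0.219, 0.0855 and 0.150 in wild type. Every knockout library lay above every wild-type library, as in 22.2% of all genes. The log2 fold change was 2.44 (SE 0.67, 95% interval 0.93 to 3.95, edgeR adjusted p = 0.0212), a 5.42-fold rise. For Nck2 the authors' deposited table lists 2.46 in log2, with SE 0.74 and an adjusted p of 0.00551 from DESeq2.

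The Nck2 call stands on 115 counts in all. It was also the 1 gene of the 10 with more summed counts in knockout, 81 against 34 in wild type. Scaled by totals it was 2.50-fold higher (95% interval -0.20 to 2.85 in log2, SE 0.68, edgeR adjusted p = 0.101), not a call. Leaving out KO-3, WT-2 or WT-3 ended the TMM call (adjusted p = 0.0901, 0.071 and 0.0664), and over the 6 such fits the log2 fold change ran from 2.05 to 2.80. A block for replicate number also ended it (2.46, SE 0.82, edgeR adjusted p = 0.0652). So did that block with exon length and GC content corrected for (2.53, SE 0.83, edgeR adjusted p = 0.0637). In deposited FPKM (counts per transcript length and depth) Nck2 stood at 0.107, 0.142 and 0.248 in knockout libraries and at 0.108, 0.0356 and 0.0650 in wild-type libraries. On that scale KO-1 and WT-1 were level and the groups overlapped.

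Nck1 (chromosome 9, 100492293 to 100546134, minus strand) was the adaptor with the higher FPKM in every library. It stood at 9.96, 5.54 and 7.56 CPM in knockout libraries and 6.47, 8.81 and 7.46 CPM in wild-type libraries with TMM scaling. The knockout libraries spanned the whole wild-type range, and the log2 fold change was 0.02 (SE 0.21, 95% interval -0.46 to 0.50, edgeR adjusted p = 0.958). Per 100 Nck1 counts, a ratio within a library that no scaling can alter, there were 5.60, 12.8 and 16.1 Nck2 counts in knockout libraries and 3.38, 0.970 and 2.01 in wild-type libraries. These did not overlap (exact permutation p = 0.1, two-sided, the smallest that 3 against 3 allows and the value of any ratio without overlap). Abl1 counts per 100 Abl2 counts did not overlap either (188 ± 22.9 in knockout and 146 ± 17.8 in wild type). Abl2 itself lay wholly below wild type with TMM (log2 -0.47), as did 24.4% of all genes. Ratios of Sos1 to Sos2, Vasp to Evl, Usp33 to Usp20 and Robo4 to Robo3 overlapped. What share of all genes would lie wholly above wild type per Nck1 count or per Abl2 count was not computed.

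Abl1 (chromosome 2, 31688376 to 31804227, plus strand) encodes a tyrosine kinase that phosphorylates Robo in Drosophila. It stood at 6.27, 6.13 and 5.47 CPM in knockout libraries and 6.95, 6.37 and 5.87 CPM in wild-type libraries with TMM scaling. The groups overlapped, and the log2 fold change of -0.10 (SE 0.14, 95% interval -0.41 to 0.21, edgeR adjusted p = 0.633) lay near the median of all genes. With total counts it was -1.23 (SE 0.14, adjusted p = 2.89e-05), again near that median.

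Sos1 (chromosome 17, 80393751 to 80480453, minus strand) encodes an exchange factor that loads Ras and Rac with GTP, and in Drosophila Sos joins Robo through Dock. It had 47, 34 and 30 counts in knockout libraries and 129, 156 and 130 counts in wild-type libraries. In TMM-scaled CPM these were 1.25, 0.961 and 1.04 in knockout, and 2.02, 1.90 and 1.501 in wild type. Every knockout library lay below every wild-type library, as in 24.4% of all genes with TMM scaling. The log2 fold change of -0.73 (SE 0.28, 95% interval -1.36 to -0.11) did not pass, at an edgeR adjusted p = 0.0753, and ran from -0.85 to -0.63 when each library was left out in turn. With total counts it was -1.87 (SE 0.27, adjusted p = 1.66e-04), the lowest of the 10. With exon length and GC content corrected for, the TMM value was -0.46 (SE 0.29, edgeR adjusted p = 0.281).

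Of the GTPase-activating proteins, Srgap2 (chromosome 1, 131285251 to 131527352, minus strand) belongs to the srGAP family, which binds Robo tails and bends membranes. It stood at 3.08, 4.01 and 4.35 CPM in knockout libraries and 5.47, 4.29 and 5.87 CPM in wild-type libraries with TMM scaling. KO-3 lay just above WT-2, so the groups met. The log2 fold change was -0.45 (SE 0.19, 95% interval -0.89 to -0.01, edgeR adjusted p = 0.114), and -1.58 (SE 0.20, adjusted p = 6.27e-05) with total counts.

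Myo9b (chromosome 8, 71272714 to 71360713, plus strand) encodes an unconventional myosin with a GTPase-activating domain that in human cells binds ROBO1. It stood at 13.6, 12.7 and 10.8 CPM in knockout libraries and 12.2, 11.3 and 9.15 CPM in wild-type libraries. The groups overlapped at a log2 fold change of 0.19 (SE 0.14, 95% interval -0.13 to 0.51, edgeR adjusted p = 0.35). With total counts the value was -0.94 (SE 0.14, adjusted p = 1.79e-04), a call in the other direction. Myo9b shares 116 exon bases with Haus8 on the opposite strand, and the strand setting of the counting is not stated in these sources.

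Vasp (chromosome 7, 19256929 to 19271817, minus strand) is of the Ena/VASP family, which extends actin filaments. It stood at 6.43, 5.76 and 5.88 CPM in knockout libraries and 6.47, 7.37 and 5.64 CPM in wild-type libraries with TMM scaling. The knockout values lay within the wild-type range, at a log2 fold change of -0.11 (SE 0.15, 95% interval -0.44 to 0.23, edgeR adjusted p = 0.638). With total counts it was -1.24 (SE 0.15, adjusted p = 5.42e-05).

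Usp33 (chromosome 3, 152346478 to 152393617, plus strand) encodes a deubiquitinase that in human cells removes ubiquitin from ROBO1 and is needed there for the response to SLIT2. It stood at 4.04, 4.44 and 5.15 CPM in knockout libraries and 3.37, 4.15 and 3.97 CPM in wild-type libraries with TMM scaling. KO-1 lay below WT-2, and the log2 fold change was 0.24 (SE 0.17, 95% interval -0.15 to 0.63, edgeR adjusted p = 0.335). With exon length and GC content corrected for, Usp33 was called higher, at 0.53 (SE 0.16, edgeR adjusted p = 0.0359). With a replicate block added to that correction it was not called (0.52, SE 0.17, edgeR adjusted p = 0.0623). With total counts it was called lower, at -0.89 (SE 0.19, adjusted p = 0.0017). On the opposite strand 3 predicted genes share exon bases with it, 1478 in Gm43857, 745 in Gm42967 and 139 in Gm43859.

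The mix of the 10 genes within a library is free of any scaling between libraries. Nck2 made up 1.20, 1.69 and 2.83% of their summed counts in knockout libraries and 0.496, 0.190 and 0.366% in wild-type libraries. Sos1 made up 2.69, 2.29 and 2.43% in knockout libraries and 4.57, 4.24 and 3.66% in wild-type libraries. Shares of the other 8 genes overlapped between the groups, so 1 gene lay wholly above and 1 wholly below wild type. With every gene set over the same summed counts, 20.8% of all genes lay wholly above and 24.1% wholly below. Exact permutation tests gave p = 0.1 for Nck2 and for Sos1, the smallest that 3 against 3 allows.

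**Figure D3:**
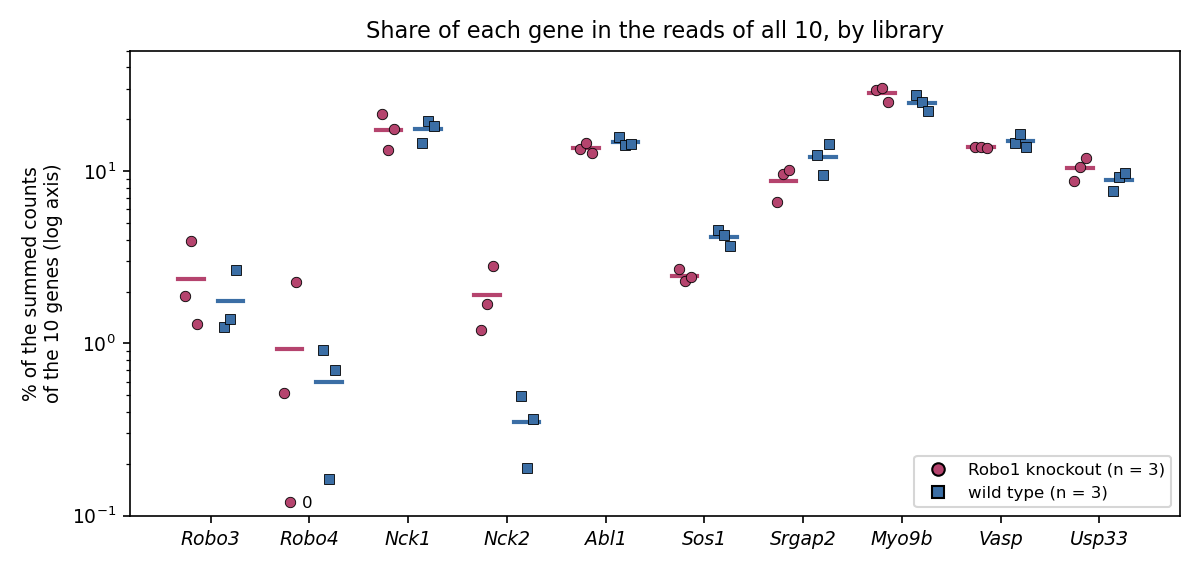
Share of each gene in the summed counts of the 10 genes, in percent on a log axis, by library (points) with group means (bars; knockout left, wild type right, n = 3 each). Nck2 took 1.91 ± 0.836% in knockout and 0.351 ± 0.153% in wild type, Sos1 took 2.47 ± 0.203% and 4.16 ± 0.459%, and Robo4 in KO-2 is drawn at the bottom and marked 0.

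Levels were compared between genes in deposited FPKM, which allow for length. Vasp was the highest of the 10 in both groups, at 1.58 ± 0.165 FPKM in knockout and 3.74 ± 0.615 FPKM in wild type (mean ± SD, n = 3 each). Nck1, Myo9b and Usp33 followed in that order, at 1.01 to 0.815 FPKM in knockout and 2.11 to 1.52 FPKM in wild type, and neighbours among these 3 overlapped in both groups. Next came Abl1, at 0.571 ± 0.0873 FPKM in knockout and 1.35 ± 0.206 FPKM in wild type, and Srgap2, at 0.342 ± 0.0173 and 1.22 ± 0.138 FPKM. In knockout these were apart from their neighbours, and in wild type Usp33, Abl1 and Srgap2 overlapped in turn. The rest were lower. In knockout Robo3 stood at 0.223, Nck2 at 0.166, Sos1 at 0.0711 and Robo4 at 0.0441 FPKM, and in wild type Robo3 stood at 0.276, Sos1 at 0.263, Robo4 at 0.0902 and Nck2 at 0.0694 FPKM. Nck2 stood above 31.1% of all genes in knockout and above 10.1% in wild type. For 7 genes every knockout library lay below every wild-type library in FPKM, as for 74.3% of all genes, and for none above, as for 4.82%.

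The 2 kinds of deposited value did not track each other for every gene. Dividing a library's counts by its total and by the FPKM gives the transcript length that links the columns. For Sos1 this length was 10040 to 10360 bases in the 6 libraries, close to the 10594 bases of its annotated exons. For Robo3 it ran from 1405 bases in KO-3 to 5812 bases in WT-2, a ratio of 4.14. Among 1813 genes in the same range of summed counts, the median ratio was 1.10 and the 90th percentile 2.14. In Robo3 the 16 counts of KO-3 and the 58 counts of KO-2 therefore went with nearly the same FPKM, 0.270 and 0.274. Robo3 has 6 annotated transcripts, and how the FPKM were assigned among them is not stated in these sources. For Robo4 the ratio was 1.97 over the 5 libraries with counts, and for Srgap2 it was 1.41.

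**Figure D4:**
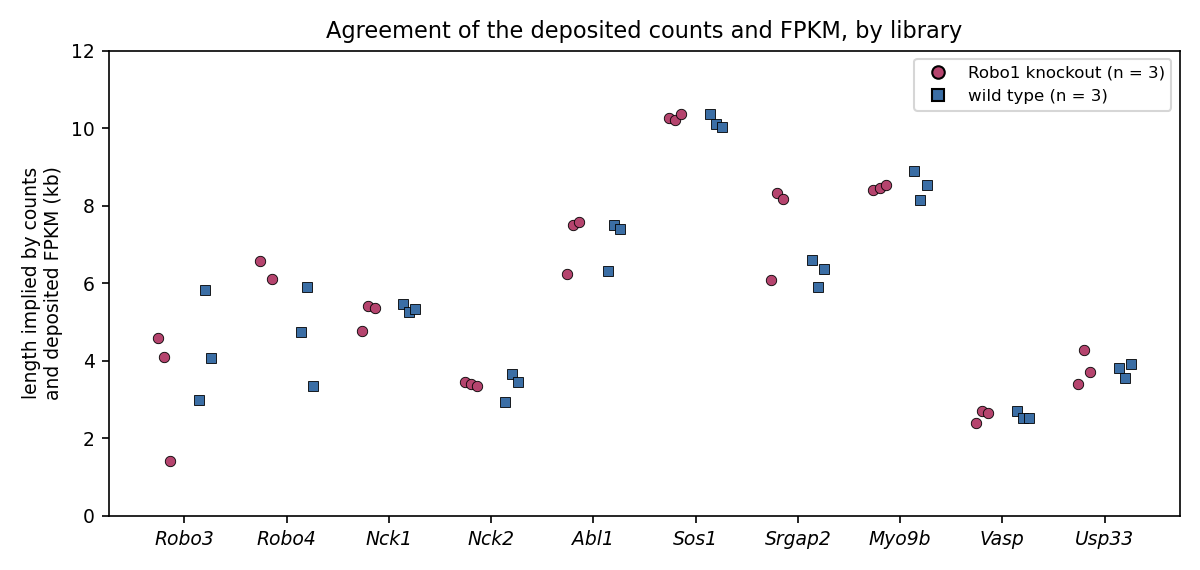
Transcript length implied by the deposited counts and FPKM, in kilobases, for each gene and library (points; knockout left, wild type right, n = 3 each, without the Robo4 library at 0 counts). The 6 Sos1 points are level, and the Robo3 points spread from 1405 bases in KO-3 to 5812 bases in WT-2.

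Around these genes a wider Slit-Robo list of 62 genes was described, of which 49 were analysed here and 47 tested. With TMM scaling edgeR called 6 of the 47 higher (12.8%, against 17.2% of all genes) and 9 lower (19.1%, against 14.4%), at a median log2 fold change of -0.11, against -0.09 over all genes. With total counts 2, Pfn1 and Rac2, were called higher (4.26%, against 4.23% of all genes) and 40 lower (85.1%, against 70.7%), with a median log2 fold change of -1.24, against -1.22 over all genes. Without WT-2 the lower TMM calls of the list were 5. Of the Slit ligands only Slit2 was analysed here, with 19 counts in knockout and 39 in wild type over 3 libraries each, too few to be tested.

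Of the 4 GTPases at the end of the pathway, 3 were called higher with TMM scaling, where 17.2% of all genes were, and 1 lower, where 14.4% were. Rac2, the blood cell Rac, stood at 2050.03 ± 134 CPM in knockout and 812 ± 29.6 CPM in wild type (n = 3 each), a log2 fold change of 1.34 with TMM and 0.20 with total counts, both called. Cdc42 and Rhoa rose with TMM (0.75 and 0.82), and both were called lower with total counts (-0.38 and -0.31). Rac1 was called lower under both scalings, at -0.43 and -1.57, but not with TMM under the length and GC correction (-0.30, edgeR adjusted p = 0.0537) or without WT-2 (adjusted p = 0.0514). Pfn1, the actin-binding protein profilin and a partner of Ena/VASP proteins, rose to 1976 ± 129.8 CPM in knockout, against 672 ± 122 CPM in wild type, and was called higher under both scalings. Cap1, which recycles actin monomers, rose with TMM (0.57) and was called lower with total counts (-0.56). Its TMM call was lost without KO-1, KO-3, WT-2 or WT-3.

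Beside Nck2, the remaining calls of the list were falls. Cyth1 and Cyth2, exchange factors for Arf GTPases, fell by 1.29 (SE 0.22) and 1.15 (SE 0.22) on the log2 scale, and their substrate Arf6 fell by 0.96 (SE 0.25). Ptpn11, the phosphatase SHP-2, stood at 13.7 ± 2.29 CPM in knockout and 28.8 ± 3.10 CPM in wild type (log2 -1.06, SE 0.13). The adaptor gene Grb2 (log2 -0.84), the Abl-cadherin linker gene Cables1 (-0.91), the Rac exchange factor gene Dock2 (-0.47) and the kinase gene Rock1 (-0.38) were also called lower with TMM. All of these were called lower with total counts too. Under the same length and GC correction the list had 8 calls higher (17%, against 16.6% of all genes) and 6 lower (12.8%, against 13.2%), so the share of falls no longer exceeded that of all genes. Dock2 (-0.24, edgeR adjusted p = 0.11) and Rock1 (-0.10, adjusted p = 0.561) were then not called, and Pak2 was called higher (0.49, adjusted p = 0.00174). Rock1 also lost its call with RLE factors, with DESeq2 and without any 1 library other than WT-1. Grb2 lost its call without KO-1, KO-3, WT-2 or WT-3, Arf6 without KO-1, KO-2 or WT-1, and Cables1 without WT-2 or WT-3. With TMM alone Abl2, the other Abl kinase, did not pass (log2 -0.47, SE 0.16, edgeR adjusted p = 0.0514), nor did Pak2 (0.26, SE 0.09, adjusted p = 0.0597) or Ctnnb1, beta-catenin (-0.39, SE 0.17, adjusted p = 0.122). The surface partners Sdc4 and Sdc2 (-0.66 and -0.18) and the microtubule proteins Clasp1 and Clasp2 (0.06 and -0.09) did not pass either. In these bulk samples fewer cells of a type and less RNA per cell cannot be told apart.

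**Figure D5:**
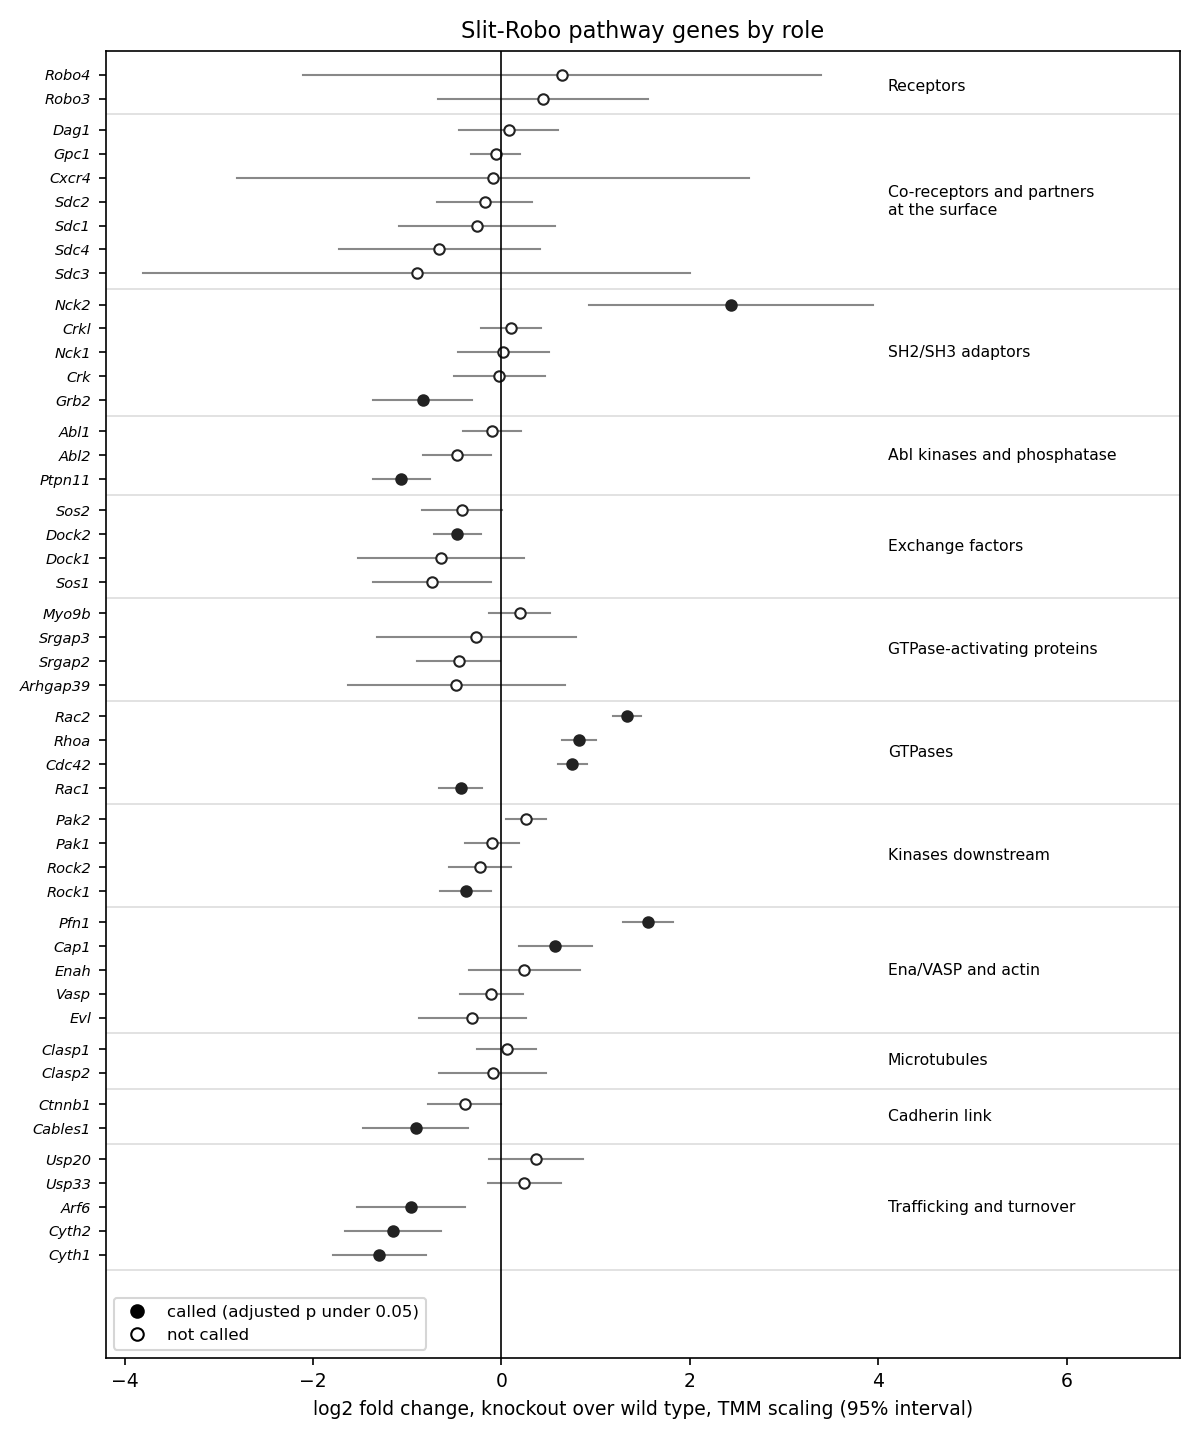
Log2 fold change of the 47 tested Slit-Robo pathway genes, knockout over wild type with TMM scaling, with 95% intervals, grouped by role. Filled circles are calls. The 6 genes called higher are Nck2, Rac2, Rhoa, Cdc42, Pfn1 and Cap1, of which only Rac2 and Pfn1 were also called higher with total counts.

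Genes whose pattern over the 6 libraries was most like that of a member were picked by Pearson's r of log2 CPM among up to 9791 genes with a mean of at least 1 CPM, as a description only. For Robo3 they were Rwdd2b (r = 0.98), Pdlim4 (0.97) and Arfip2 (0.97), which share its high KO-2 and WT-3. For Robo4 they were Cdk12, Pcnx4 and Ccp110 (0.97 each), with their highest level in KO-3. For Nck2 they were Lsm6 (0.996), Tmem63a (0.995) and Ighv1-61 (0.992). Of these Lsm6 stood at 229.7, 231 and 239.97 CPM in knockout libraries and at 210.2, 199 and 205 CPM in wild-type libraries, and so copied the order of Nck2 over a far smaller fold. For Usp33 they were Thap12 (0.99), Ppp2r2a (0.98) and Arl1 (0.98).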

How the data were processed

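Per the submitters' processing notes the tools named are fastp 0.22.0, HISAT2 2.2.1, featureCounts 2.0.1 and DESeq2 1.32.0 with build mm10. The authors deposited raw read counts per gene and library, and a length-scaled value, taken as FPKM from its values since the file headers give no unit. The deposited log2 fold changes, p-values, mean signal and test score are the authors' DESeq2 comparison, and serve only as description.

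The deposited counts went into edgeR 4.0.16 (R 4.3.3), where filterByExpr left 15474 genes, TMM scaled them, and the quasi-likelihood test (two-sided, group as the only term) called genes at a Benjamini-Hochberg adjusted p under 0.05. Standard errors are the log2 fold change over the root of F. CPM use TMM-scaled library sizes unless total counts are named. Alternatives were other scalings, DESeq2 1.42.0, other filters, a replicate block, a smooth exon length and GC correction, and each library left out. Positions, lengths and GC come from GENCODE vM21 (GRCm38), which matched 18457 of 18491 IDs. The fit was tested on simulated counts. The 10 genes, the pathway list and the marker lists were chosen with earlier results of these data known. Named beyond the members were Cdc42 and up to 2 pathway genes of lowest p per role. Rhoa, Rac1, Arf6, Slit2, Haus8, Plvap, Kdr, Kit, Ly6a, Cd48, Hlf, Meis1 and the Gm genes were named after their values were seen. The 2 genes of highest level were named for the stem and progenitor list and for the endothelial list. For the stromal and neuronal lists the gene of highest level was named, and for the other marker lists no gene. Limits set by 3 counts cover counting error only.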

Additional observations from a re-analysis of the deposited data

How the results depend on the processing

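Total counts turned the sign of 5 of the 10 members. With total counts 655 genes were called higher and 10937 lower, in place of 2669 and 2229, 0 of the 10 members higher and 7 lower, and 2 pathway genes higher and 40 lower. Nck1 (-1.12), Usp33 (-0.89) and Myo9b (-0.94) turned from a value above 0 to a call below it. Total counts with 1 library left out, added after the data were seen, left in the order KO-1 to KO-3, WT-1 to WT-3 the counts 599, 569, 635, 671, 590 and 592 higher and 10732, 10819, 10804, 10526, 10167 and 10163 lower. Members stayed at 0 higher and 7 lower and the pathway at 2 higher, with 40, 39, 40, 39, 37 and 39 lower. In the same order Nck1 was -1.34, -0.94, -1.12, -1.24, -0.98 and -1.13, Usp33 -0.80, -0.89, -0.997, -0.995, -0.81 and -0.86 and Myo9b -0.999, -0.97, -0.86, -0.88, -0.89 and -1.05.

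With TMM and 1 library left out, 2226 to 2542 genes were called higher and 1356 to 2142 lower, with 1356 without WT-2 and 1419 without WT-3. Members called higher were 0 to 1 (0 without KO-3, WT-2 or WT-3), and pathway calls 4 to 6 higher and 5 to 8 lower. The length and GC correction called 2 members higher, Nck2 and Usp33, and 6 pathway genes lower. Deviations from the group mean correlated at 0.32, -0.19 and 0.24 between libraries of the same replicate number (5420 genes). Between unlike numbers they correlated at -0.49 to 0.32. With 3 libraries per group these values cannot show whether replicate numbers pair the libraries. The replicate block called 0 members higher (Nck2 2.46, SE 0.82, edgeR adjusted p = 0.0652), with 2467 genes higher and 1906 lower, and the replicate block with the length and GC correction called 0 members higher (Nck2 2.53, adjusted p = 0.0637) and 4 pathway genes lower. DESeq2, RLE, upper-quartile and TMMwsp factors and both other filters each called Nck2 alone of the members. Of 160 planned values of single members, 134 kept sign and side of the threshold, 12 changed sign with no call in either fit, 3 changed sign and were called, and 11 kept sign and crossed the threshold. Robo4 (37 counts in knockout, 57 in wild type), Robo3 and Nck2 have the fewest counts. The causes of these changes were not tested.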
